A study of Mus musculus with 25 samples.

Results

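Jejunal messenger RNA of mouse pups that were weaned early and given lacto-N-neotetraose (EW+LNnT, 5 libraries) was compared with that of pups kept suckling (Control, 5 libraries). The members were the libraries that the labels and the column names of the deposited count table assign to these groups, and they make up 10 of the 25 libraries of the series. Pups of all groups entered the study at postnatal day 14, pups of the EW groups were weaned at day 15, and the suckling pups were taken at day 21, per the series' design text. The other libraries came from pups weaned early with no oligosaccharide (EW, 5 libraries), which are shown beside the comparison because EW+LNnT and Control differ in both weaning and the oligosaccharide, and from EW pups given 2'-fucosyllactose or both oligosaccharides (5 libraries each), which entered the fit. The sources used here give neither the dose nor the mouse strain, nor the day and hour at which EW+LNnT pups were taken. Nothing in them ties a library to its own animal, and the p-values therefore measure the spread between samples alone, which may be technical.

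Weaning moves the small intestine of the mouse from a milk diet rich in fat and lactose to solid food: enterocytes lose the uptake of maternal antibody and the synthesis of arginine and gain sucrase, while the growing bacterial community induces antimicrobial proteins. Glucocorticoids, hormones of the adrenal cortex, can hasten this change and act through the glucocorticoid receptor on genes such as Fkbp5 and Per1. Feeding time and glucocorticoids also set the circadian clock of the gut, in which CLOCK and BMAL1 drive the Per and Cry genes and are repressed by their products. Lacto-N-neotetraose is an oligosaccharide of human milk that is largely left undigested in the small intestine.

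The 5 EW+LNnT libraries held 58732979 to 84625946 counts and the 5 Control libraries 68937663 to 86276840 counts. LNnT1 and LNnT2 stood apart from the rest of the series: they lay at 171.9 and 145.5 on the first principal component, which held 22.4% of the variance, whereas LNnT3 to LNnT5 lay between -36.1 and -34.6 and Control libraries between -46.4 and -18.3. Mitochondrially encoded genes took 8.98% and 9.57% of the counts in LNnT1 and LNnT2, 5.46% to 6.44% in the other EW+LNnT libraries and 5.87% to 7.73% in Control libraries. Transcripts of 14 pancreatic acinar enzymes, which mark tissue outside the jejunum, made up 1.25% and 0.398% of the counts of LNnT1 and LNnT2 and 0.952% of those of Control3, with summed levels of 8.88 to 14757 CPM (counts scaled to a common library size) in EW+LNnT and 11.6 to 9600 CPM in Control, and several of them (Prss1, Pnlip, Try4 and Try5) were at 0 in LNnT3. LNnT4 and LNnT5 carried Y-linked transcripts and LNnT1 to LNnT3 did not, whereas in Control only Control2 carried them, together with Xist. In EW, Weaned1, Weaned2, Weaned4 and Weaned5 carried Y-linked transcripts, at 156 to 191 CPM, and Weaned3 was at 0.276 CPM. The part of these library features in the results was not tested. The fit was repeated without LNnT1, LNnT2 and the 2'-fucosyllactose library that stood with them, and without the libraries with pancreatic transcripts above 0.1% of counts. Control2, at 0.0993%, lay just under that limit and stayed in, so the latter fit was not free of these transcripts. All 12 marker genes of jejunal epithelium listed were measured, with a mean log2 CPM of 10.1 to 10.3 in EW+LNnT and 10.3 to 10.6 in Control.

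Of 22131 genes tested, 2348 passed an adjusted p of 0.05 in edgeR's quasi-likelihood test, which is 10.6% of them. EW+LNnT was higher in 1478 (6.68%) and lower in 870 (3.93%), and 878 of the 2348 differed by at least 2-fold. With limma on the authors' FPKM values, which are scaled to transcript length and depth, the split turned to 907 higher and 1304 lower, and limma voom on the counts gave 1844 higher and 1756 lower, so the balance of directions depends on the test and the scale. The median log2 change of all genes was -0.13 with FPKM values and -0.0040 in edgeR's fit of the counts. The 5 EW+LNnT libraries lay wholly above the 5 Control libraries in 1189 genes (5.37%) and wholly below in 1322 (5.97%). EW against the same Control libraries gave 211 calls, 0.953% of the genes. The test of EW+LNnT against EW gave 38 calls, 0.172% of the genes, 25 of which were also called against Control. The median log2 change of the genes called higher was 0.87 in EW+LNnT against Control and 0.40 in EW against Control, and that of the genes called lower was -0.80 in EW+LNnT against Control and -0.47 in EW against Control. The number of calls depended on single libraries: it was 1283 without Control1, 700 without Control3, 767 without Control5, 1115 without LNnT1 and 1016 without LNnT2. Without LNnT1, LNnT2 and the 2'-fucosyllactose library beside them there were 1474 calls, 996 of them among the 2348, and without the 5 libraries with pancreatic transcripts above 0.1% of counts (LNnT1, LNnT2, Control3 and 2 of other groups) there were 261, of which 200 were among the 2348. Among libraries without Y-linked transcripts (LNnT1 to LNnT3 against Control1, Control3, Control4 and Control5) there were 3566 calls, and 10 of the 13 core clock genes and 8 of the 15 glucocorticoid-induced genes described next were called higher. Of the 97 genes of the gene lists and named genes that were called, 50 kept their call whichever of the 10 libraries was left out, 60 kept it without LNnT1, LNnT2 and the 2'-fucosyllactose library, and 32 kept it without the libraries with pancreatic transcripts.

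Genes of the circadian clock were higher in EW+LNnT jejunum. Of 13 core clock genes tested, 8 rose, among them Clock, Per1, Per2, Per3, Cry1, Cry2 and Ciart, and none fell, against the 10.6% of all genes called, with a median log2 change of 1.23 beside -0.0040 over all genes. The median was 0.65 without LNnT1, LNnT2 and the 2'-fucosyllactose library, and 0.62 without the libraries with pancreatic transcripts. In EW against the same Control libraries, where 0.953% of all genes were called, edgeR called none of the 13. Their median was 0.28, 3 had an unadjusted p below 0.05, and DESeq2 called 1 and limma voom 3. Between EW+LNnT and EW, where 0.172% of all genes were called, edgeR called 1 of the 13, DESeq2 5 and limma voom 4. Without LNnT1, LNnT2 and the 2'-fucosyllactose library edgeR called 4 of the 13 in EW against Control, beside 7 in EW+LNnT against Control. Without the libraries with pancreatic transcripts it called 1 in EW and 3 in EW+LNnT. Of 6 genes that carry clock output to other genes, Hlf, Nfil3 and Bhlhe40 rose, and the call of Bhlhe40 ended in both of those fits.

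Per2 and Cry1 were higher in every EW+LNnT library than in every Control library. Per2 (chr1:91343704-91387046, on GRCm39 as for all gene positions given in parentheses), a repressor of CLOCK and BMAL1, was at 92.8, 91.1, 158, 99.4 and 114 CPM in LNnT1 to LNnT5, against 46.8, 46.7, 47.2, 52.3 and 39.8 CPM in Control1 to Control5 (log2 change 1.25 ± 0.19, adjusted p = 0.00087). All 5 EW+LNnT libraries lay above all 5 Control libraries, and Per2 was nearly level within Control. Cry1, which encodes the partner of the Per proteins, was at 68.8, 35.0, 42.0, 37.6 and 34.8 CPM in EW+LNnT, against 15.9, 21.3, 15.2, 18.9 and 11.3 CPM in Control (log2 change 1.40 ± 0.22, adjusted p = 0.0011). LNnT1 was well above the rest for Cry1, and the groups did not overlap.

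Among the output factors Nfil3 and Hlf were the clearest. Nfil3 (chr13:53121245-53135109), a repressor that competes at D-box sites and is needed for innate lymphoid cells, was at 85.7, 27.8, 55.9, 21.7 and 21.0 CPM in LNnT1 to LNnT5, against 4.36, 10.7, 6.81, 8.66 and 6.41 CPM in Control1 to Control5, a fold of 5.73 (log2 change 2.52 ± 0.41, adjusted p = 0.0016). Hlf, an activator at the same sites, was at 48.9, 53.5, 36.8, 38.2 and 40.8 CPM in EW+LNnT, against 19.3, 18.5, 17.3, 14.9 and 11.7 CPM in Control (log2 change 1.42 ± 0.21, adjusted p = 0.00087). Every EW+LNnT library was above every Control library in both, but the Nfil3 values of EW+LNnT spread over a range of 21.0 to 85.7 CPM while those of Hlf stayed within 36.8 to 53.5 CPM. Clock itself, the activating partner of BMAL1, was at 161, 139.8, 116, 98.9 and 90.5 CPM in EW+LNnT, against 54.9, 78.4, 46.1, 62.5 and 57.0 CPM in Control (log2 change 1.02 ± 0.22, adjusted p = 0.0086).

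Other clock genes were high in LNnT1 and LNnT2 above all. Per1 was at 476, 406, 81.0, 57.1 and 59.9 CPM in LNnT1 to LNnT5, against 42.8 to 56.2 CPM in Control (log2 change 2.06 ± 0.51, adjusted p = 0.016). Cry2 was at 311, 211, 29.6, 35.9 and 37.8 CPM in EW+LNnT, against 14.9 to 29.7 CPM in Control (log2 change 2.61 ± 0.63, adjusted p = 0.013). In both genes LNnT1 and LNnT2 were several times the other EW+LNnT libraries, which stood near or just above the highest Control library. Nr1d1, which encodes the repressor REV-ERB alpha, was at 434, 304, 37.4, 11.3 and 9.30 CPM in EW+LNnT, against 51.4 to 88.6 CPM in Control, and did not pass the test (log2 change 1.23 ± 0.78, adjusted p = 0.32). LNnT1 and LNnT2 lay above all Control libraries and LNnT3 to LNnT5 below them, and the Nr1d1 estimate was -1.83 (adjusted p = 0.033) without LNnT1 and LNnT2. In Dbp, another D-box activator, LNnT1 and LNnT2 also lay above and LNnT4 and LNnT5 below all Control libraries, at 98.4, 82.5, 25.5, 8.83 and 6.79 CPM in EW+LNnT, against 15.0 to 38.9 CPM in Control (adjusted p = 0.37). Bmal1 was at 13.6, 30.7, 54.6, 40.8 and 32.8 CPM in EW+LNnT, against 16.2 to 36.2 CPM in Control (adjusted p = 0.14), with LNnT1 the lowest of all 10. Without LNnT1 and LNnT2 6 core clock genes passed as higher, among them Clock, Bmal1, Per2, Cry1 and Cry2, and Nr1d1 as lower, and without the libraries with pancreatic transcripts 3 passed as higher, among them Per2 and Cry1. Leaving out LNnT1 alone ended the calls of Per1, Per3, Cry2 and Ciart.

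**Figure D1:**
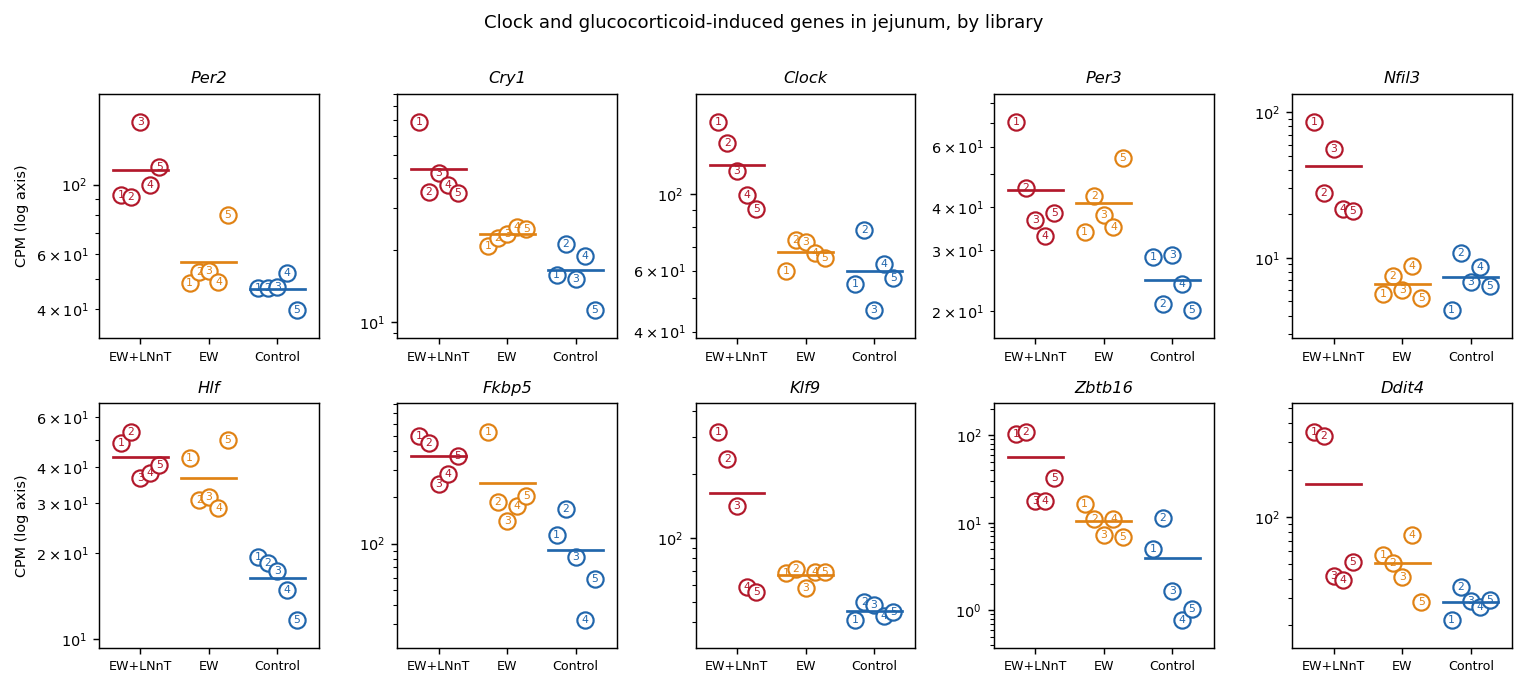
Levels (CPM, log axis) of 6 clock genes and 4 glucocorticoid-induced genes in the 5 EW+LNnT, 5 EW and 5 Control libraries, each circle a library numbered by replicate and each line the group mean. EW+LNnT libraries lie above Control libraries in all of the panels, with Hlf close together within EW+LNnT and Zbtb16 and Ddit4 spread, where LNnT1 and LNnT2 reach 103 to 111 and 330 to 352 CPM.

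Clock factors bind short motifs near gene starts. The 250 bases before the start are therefore shown for those core clock genes called higher that hold a motif named below in these bases. The sequences are RefSeq's, for the build GRCm38.p6, on the gene's own strand from 5′ to 3′, with the letters of the motif in capitals. Both strands of 300 bases, the 250 shown and the 50 after the start, were searched for the E-box CACGTG, bound by CLOCK and BMAL1, and for the D-box TTATGTAA or TTACGTAA, bound by Nfil3, Hlf and Dbp. Of the 8 core clock genes that rose, 6 were matched in the table, with 9 promoters. Ciart, which encodes a repressor of CLOCK and BMAL1, has its promoter at chr3:95882229-95882478 on the minus strand and holds 3 E-boxes, 44, 58 and 116 bases before the start.
Ciart: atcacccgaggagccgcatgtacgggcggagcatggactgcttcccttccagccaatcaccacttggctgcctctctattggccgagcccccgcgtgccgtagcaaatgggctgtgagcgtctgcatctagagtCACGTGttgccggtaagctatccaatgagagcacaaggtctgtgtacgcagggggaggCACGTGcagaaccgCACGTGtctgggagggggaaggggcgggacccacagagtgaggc
Cry1, at chr10:85185055-85185304 on the minus strand, holds 1 E-box, 60 bases before the start.
Cry1: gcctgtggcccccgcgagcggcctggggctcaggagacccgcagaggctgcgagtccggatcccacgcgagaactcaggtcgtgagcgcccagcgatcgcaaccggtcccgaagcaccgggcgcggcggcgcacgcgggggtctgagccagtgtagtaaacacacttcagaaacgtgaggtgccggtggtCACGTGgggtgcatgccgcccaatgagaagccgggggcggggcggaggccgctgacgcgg
Per1, at chr11:69098699-69098948 on the plus strand, holds 1 E-box, 166 bases before the start.
Per1: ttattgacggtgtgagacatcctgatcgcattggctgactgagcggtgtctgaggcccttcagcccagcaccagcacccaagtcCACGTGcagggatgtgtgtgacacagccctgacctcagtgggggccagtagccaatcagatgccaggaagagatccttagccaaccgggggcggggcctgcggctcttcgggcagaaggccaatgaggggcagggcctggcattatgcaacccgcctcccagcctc
Per3, at chr4:151044666-151044915 on the minus strand, holds the D-box at 158 and 205 bases before the start.
Per3: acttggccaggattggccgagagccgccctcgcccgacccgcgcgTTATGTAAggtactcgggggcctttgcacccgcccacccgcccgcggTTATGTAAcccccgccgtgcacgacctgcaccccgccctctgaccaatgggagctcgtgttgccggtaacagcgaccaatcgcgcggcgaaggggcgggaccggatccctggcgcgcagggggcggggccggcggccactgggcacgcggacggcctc
The E-box occurred in 33.3% of the 9 promoters of the clock genes that rose and in 7.15% of all 32851 promoters of the table, and the D-box in 1.06% of all promoters. None of these matches overlapped another motif searched, and a match is a description of the letters in these 300 bases that says nothing of binding.

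Ciart was the clock gene with the greatest estimate and the least even one. Its level was 50.9, 38.3, 2.83, 1.04 and 0.898 CPM in LNnT1 to LNnT5, against 2.23, 0.522, 1.39, 0.762 and 1.44 CPM in Control1 to Control5 (log2 change 3.89 ± 0.95, adjusted p = 0.015). LNnT1 and LNnT2 stood far above all others, and LNnT4 and LNnT5 lay among the Control libraries. Per3, by contrast, was at 70.6, 45.6, 36.8, 33.0 and 38.5 CPM in EW+LNnT, against 20.1 to 29.0 CPM in Control (log2 change 0.87 ± 0.21, adjusted p = 0.013), with no overlap.

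Genes that glucocorticoids induce were also higher. Of 15 tested, 8 rose (Fkbp5, Zbtb16, Dusp1, Klf9, Ddit4, Cdkn1a, Tsc22d3 and Per1) and none fell, beside 10.6% of all genes called, with a median log2 change of 1.06. The median was 0.39 without LNnT1, LNnT2 and the 2'-fucosyllactose library, and 0.43 without the libraries with pancreatic transcripts. In EW against the same Control libraries, where 0.953% of all genes were called, edgeR called none of the 15. Their median was 0.31, 1 had an unadjusted p below 0.05, and DESeq2 called 1 and limma voom 2. Without LNnT1, LNnT2 and the 2'-fucosyllactose library edgeR called 3 of the 15 in EW against Control, beside 5 in EW+LNnT against Control. Between EW+LNnT and EW, where edgeR called 0.172% of all genes, edgeR and limma voom called 0 of the 15 and DESeq2 4. In that comparison 8 had an unadjusted p below 0.05 in edgeR's test. Fkbp5 (chr17:28618068-28736498), a co-chaperone that restrains the glucocorticoid receptor, was at 495, 451, 244, 284 and 369 CPM in LNnT1 to LNnT5, against 114, 169, 82.3, 32.2 and 59.4 CPM in Control1 to Control5, a fold of 4.04 (log2 change 2.01 ± 0.40, adjusted p = 0.0054). The groups did not overlap, and Control varied more than EW+LNnT in proportion. Zbtb16, which encodes the transcription factor PLZF, was at 103, 111, 17.7, 18.0 and 32.7 CPM in EW+LNnT, against 5.08, 11.5, 1.66, 0.786 and 1.03 CPM in Control (log2 change 3.81 ± 0.82, adjusted p = 0.0081). LNnT1 and LNnT2 were the highest, yet each of the other 3 exceeded every Control library.

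Klf9, a transcription factor that is a direct target of the glucocorticoid receptor, was at 319, 238, 142, 58.7 and 55.6 CPM in LNnT1 to LNnT5, against 41.1, 49.6, 48.4, 42.7 and 44.4 CPM in Control1 to Control5 (log2 change 1.85 ± 0.37, adjusted p = 0.0062). Cdkn1a, which encodes the cell-cycle inhibitor p21, was at 527, 537, 507, 233 and 224 CPM in EW+LNnT, against 140.3 to 222 CPM in Control (log2 change 1.17 ± 0.24, adjusted p = 0.0062). Ddit4, an inhibitor of mTORC1, was at 352, 329.5, 41.5, 39.3 and 51.3 CPM in EW+LNnT, against 21.8, 35.4, 28.8, 26.2 and 29.2 CPM in Control (log2 change 2.53 ± 0.69, adjusted p = 0.023). LNnT4 and LNnT5 were the lowest of EW+LNnT in Klf9 and Cdkn1a, just above the highest Control libraries, and without LNnT1 and LNnT2 the Ddit4 estimate was 0.63 (adjusted p = 0.12). The receptor gene itself, Nr3c1, gave 0.14 ± 0.13 (adjusted p = 0.53) and Sgk1, a kinase of sodium transport, 0.88 ± 0.44 (adjusted p = 0.20). Without LNnT1 and LNnT2 5 of the 15 passed (Fkbp5, Zbtb16, Dusp1, Klf9 and Cdkn1a). Without the libraries with pancreatic transcripts 1 did (Dusp1), and Fkbp5 gave 1.67 (adjusted p = 0.054). Dusp1 stood far higher in LNnT3, which both fits kept, than in the other EW+LNnT libraries (342 CPM, others 10.9 to 44.7 CPM). LNnT4 lay within the Control range for Dusp1. Of the 10 fits that left out 1 library, 7 ended the call of Tsc22d3 and 5 that of Ddit4.

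For the 8 glucocorticoid-induced genes that rose, 7 were matched to 11 promoters (not Zbtb16), and the consensus glucocorticoid receptor element occurred in 0 of the 11 and in 0.475% of all promoters. The E-box occurred in Per1, Dusp1 and Fkbp5. Dusp1, a phosphatase of mitogen-activated kinases, has its promoter at chr17:26508473-26508722 on the minus strand, with the E-box 126 bases before the start.
Dusp1: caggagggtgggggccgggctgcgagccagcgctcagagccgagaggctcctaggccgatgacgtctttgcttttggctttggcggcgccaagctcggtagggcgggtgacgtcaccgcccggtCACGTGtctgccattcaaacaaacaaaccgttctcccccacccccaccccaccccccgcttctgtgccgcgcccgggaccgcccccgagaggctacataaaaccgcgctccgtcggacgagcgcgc
Fkbp5 has its promoter at chr17:28486150-28486399 on the minus strand, with the E-box 169 bases before the start.
Fkbp5: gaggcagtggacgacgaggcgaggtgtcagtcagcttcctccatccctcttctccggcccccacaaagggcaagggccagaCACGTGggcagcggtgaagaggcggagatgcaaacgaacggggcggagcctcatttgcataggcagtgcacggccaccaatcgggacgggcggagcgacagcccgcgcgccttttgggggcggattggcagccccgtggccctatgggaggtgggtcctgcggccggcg

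Defence proteins of the epithelium moved in both directions. Of 16 antimicrobial genes tested, Reg3b, Reg3g and Retnlb were called higher and Reg3a and Reg4 lower, beside 10.6% of all genes called. Reg3b and Reg3g alone of these 5 kept the call without LNnT1 and LNnT2, and likewise without the libraries with pancreatic transcripts. Reg3b (chr6:78347640-78350449), a C-type lectin with antibacterial activity, was at 865, 3747, 2133, 2180.0 and 1429 CPM in LNnT1 to LNnT5, against 107, 163, 38.3, 52.4 and 147 CPM in Control1 to Control5, a fold of 20.4 (log2 change 4.35 ± 0.64, adjusted p = 0.00087). Reg3g, its close relative, was at 75.5, 1081, 306, 604 and 282 CPM in EW+LNnT, against 22.1, 22.9, 13.6, 15.7 and 41.7 CPM in Control (log2 change 4.34 ± 0.69, adjusted p = 0.0016). The lowest EW+LNnT library exceeded the highest Control library in both, and LNnT2 was the highest and LNnT1 the lowest of EW+LNnT. EW showed log2 changes of 4.58 for Reg3b and 4.51 for Reg3g against the same Control libraries, and the difference of EW+LNnT from EW was -0.23 ± 0.55 (adjusted p = 0.93) for Reg3b.

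Reg3a went the other way, at 18.1, 23.4, 23.6, 57.3 and 46.5 CPM in LNnT1 to LNnT5, against 68.7 to 94.1 CPM in Control (log2 change -1.23 ± 0.35, adjusted p = 0.027). Reg4 was 1.58-fold lower (adjusted p = 0.034), and both calls ended without any 1 of Control1, Control3, Control5, LNnT1 or LNnT2. The call of Retnlb rests on LNnT2 alone, at 1.15 CPM, with 0 in the 9 other libraries of the groups. Reads of Reg3b and Reg3g, and of the Sprr2a genes below, may be shared between near-identical copies, and how the authors assigned such reads was not given in the sources used here.

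Sprr2a1 (chr3:92123106-92129218), a small proline-rich protein of the epithelium with antibacterial activity, was at 318, 61.3, 107, 79.2 and 124 CPM in LNnT1 to LNnT5, against 689.6, 1123, 1902, 2402 and 1268 CPM in Control1 to Control5, 10.7-fold lower (log2 change -3.42 ± 0.57, adjusted p = 0.0020). Sprr2a3 was at 9.74, 2.29, 7.20, 3.95 and 8.22 CPM in EW+LNnT, against 48.1, 76.7, 125, 169.9 and 68.1 CPM in Control (log2 change -3.96 ± 0.67, adjusted p = 0.0021), and Sprr2a2 gave -3.35 ± 0.57. All EW+LNnT libraries were below all Control libraries in these genes, although the change in EW, -1.98 for Sprr2a1, had an adjusted p of 0.083. Mptx1 (chr1:174158084-174160439), a mucosal pentraxin, was at 0.705, 0.952, 1.03, 0.972 and 1.2 CPM in EW+LNnT, against 9.99, 6.04, 8.91, 6.43 and 8.96 CPM in Control, 8.26-fold lower (log2 change -3.05 ± 0.30, adjusted p = 5.7e-06). It varied little within EW+LNnT and was also lower in EW than in Control (log2 change -2.99, adjusted p = 7.5e-06).

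Paneth and goblet cells, which make such proteins and mucus, gave 1 and 2 calls, a share of 7.69% and 14.3% beside 10.6% of all genes. Of 13 Paneth cell genes 1 rose, Pla2g2a, a secreted phospholipase, at 7.63, 10.4, 7.85, 9.34 and 6.70 CPM in EW+LNnT, against 5.80, 4.94, 5.88, 2.1 and 5.33 CPM in Control (log2 change 0.80 ± 0.26, adjusted p = 0.046). Of 14 goblet cell genes, Agr2, a disulfide isomerase needed for mucin folding, fell (log2 change -0.81 ± 0.24, adjusted p = 0.035) beside the single-library Retnlb call, and Muc2, the main secreted mucin, gave -0.39 ± 0.42 (adjusted p = 0.59). The calls of Pla2g2a and Agr2 ended without Control1, Control3, Control5, LNnT1 or LNnT2 alone, and in the fits without LNnT1 and LNnT2 together or without the libraries with pancreatic transcripts. Of the 10 fits that left out 1 library, 9 ended the call of Pla2g2a and 5 that of Agr2. In bulk tissue, fewer cells of a type and less RNA per cell cannot be told apart.

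**Figure D2:**
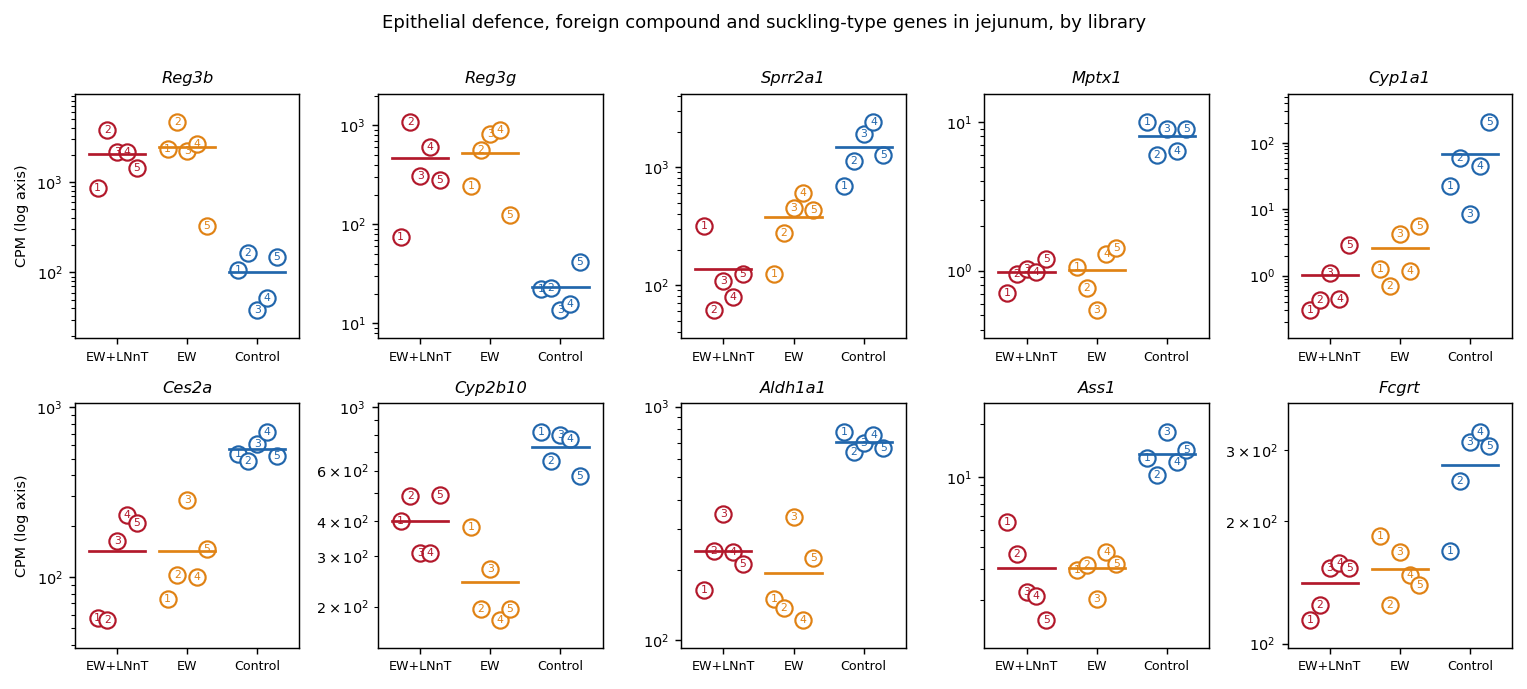
Levels (CPM, log axis) of 4 defence genes, 4 genes of foreign compound metabolism, Ass1 and Fcgrt in the 5 EW+LNnT, 5 EW and 5 Control libraries, each circle a library numbered by replicate and each line the group mean. Reg3b and Reg3g are higher and the other genes lower in EW+LNnT than in Control, with Cyp1a1 at 0.302 to 2.89 CPM in EW+LNnT and at 8.55 to 206 CPM in Control.

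Some enzymes that clear foreign compounds were lower. Of 25 tested, 7 fell (Cyp1a1, Cyp2b10, Cyp2c29, Cyp2c55, Ces2a, Ugt2b5 and Aldh1a1) and none rose, beside 10.6% of all genes called, with a median log2 change of -0.50. In EW 7 of the 25 fell against the same Control libraries, beside 0.953% of all genes called, with a median of -0.77. Between EW+LNnT and EW, where edgeR called 0.172% of all genes, it called none of the 25 while DESeq2 and limma voom called 1 each. In that comparison 2 had an unadjusted p below 0.05. Cyp1a1 (chr9:57595211-57611107), the cytochrome that the aryl hydrocarbon receptor induces most strongly, was at 0.302, 0.433, 1.09, 0.447 and 2.89 CPM in LNnT1 to LNnT5, against 22.3, 59.5, 8.55, 45.1 and 206 CPM in Control1 to Control5, 65.3-fold lower (log2 change -6.03 ± 0.99, adjusted p = 0.0019). LNnT5 was the highest of EW+LNnT and still below every Control library. Control5 was the highest Control library, and without it the estimate was -5.02 (adjusted p = 0.0069).

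Ces2a, a carboxylesterase, was at 57.5, 56.3, 164, 231 and 208 CPM in LNnT1 to LNnT5, against 529, 481, 611, 721 and 514 CPM in Control1 to Control5 (log2 change -1.99 ± 0.45, adjusted p = 0.0094). Aldh1a1, a retinaldehyde dehydrogenase, was at 164, 242, 348, 239.7 and 212 CPM in EW+LNnT, against 782, 638, 696, 757 and 667 CPM in Control (log2 change -1.55 ± 0.44, adjusted p = 0.028). Cyp2b10, the target of the receptor CAR, was at 400.0, 488, 309, 309.5 and 491 CPM in EW+LNnT, against 823, 646, 803, 772 and 576 CPM in Control (log2 change -0.86 ± 0.21, adjusted p = 0.013). The groups were separate in all of these genes, most narrowly in Cyp2b10, where the highest EW+LNnT library was at 491 and the lowest Control library at 576 CPM. Cyp2c29 (-2.19 ± 0.52), Cyp2c55 (-1.82 ± 0.52) and Ugt2b5 (-2.15 ± 0.67) fell as well, and these too belong to families of near-identical copies. The call of Aldh1a1 ended without Control1, Control3, Control5, LNnT1 or LNnT2, that of Cyp2c55 without Control1, Control3, Control4, LNnT3 or LNnT5, and that of Ugt2b5 in 8 of the 10 fits that left out 1 library. Without LNnT1 and LNnT2 together 6 of the 25 fell, 5 of them among these 7 (not Ugt2b5 and Aldh1a1), and without the libraries with pancreatic transcripts 2 did (Cyp1a1 and Cyp2c55).

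Of 8 targets of the aryl hydrocarbon receptor, a sensor of dietary and microbial ligands, Cyp1a1, Cyp1a2 and Ugt1a6a fell and Tiparp rose (log2 change 0.85 ± 0.19, adjusted p = 0.0099). These calls were 50% of the list beside 10.6% of all genes. The calls of Tiparp and Ugt1a6a ended without LNnT1 and LNnT2 together, Cyp1a1 alone was called without the libraries with pancreatic transcripts, and the Ugt1a6a call also ended without Control3, Control5, LNnT1 or LNnT2 alone. Of 11 genes of retinoid uptake and metabolism, Aldh1a1, Aldh1a2 (-0.95 ± 0.15) and Isx (-1.04 ± 0.25), a homeobox factor that limits carotenoid uptake, fell and none rose. They were 27.3% of the list, and of these Aldh1a2 alone kept its call in either of those fits. The motif of the aryl hydrocarbon receptor, TNGCGTG, occurred in 0 of 8 promoters of the 7 enzyme genes that fell and in 5.07% of all promoters. Cyp3a44, another cytochrome, was the reverse, at 6.34, 11.4, 13.8, 8.07 and 4.22 CPM in EW+LNnT, against 0.345, 1.35, 0.735, 0.590 and 0.198 CPM in Control (log2 change 3.76 ± 0.55, adjusted p = 0.00087), with no overlap. Cyp3a11 gave 0.53 ± 0.46 (adjusted p = 0.49).

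Fatty acid oxidation was lower in part. Of 20 genes tested, 6 fell (Cpt2, Slc25a20, Acadm, Acadvl, Hadhb and Cyp4a10) and 1 rose (Ppara), with a median log2 change of -0.34. The calls were 35% of the list beside 10.6% of all genes. In EW 4 fell, 20% of the list beside 0.953% of all genes, with a median of -0.35. Slc25a20, which carries acylcarnitine into mitochondria, was at 54.3, 67.7, 41.1, 57.1 and 64.5 CPM in LNnT1 to LNnT5, against 79.2, 91.9, 104, 110.3 and 101 CPM in Control1 to Control5 (log2 change -0.77 ± 0.17, adjusted p = 0.0090). Hadhb, a subunit of the trifunctional protein, was at 187, 211, 132, 180.0 and 178 CPM in EW+LNnT, against 272, 274, 252, 292 and 272 CPM in Control (log2 change -0.62 ± 0.13, adjusted p = 0.0066). The groups did not overlap in Slc25a20 or Hadhb. Cyp4a10, an omega-hydroxylase and target of PPAR alpha, gave -2.31 ± 0.59, Acadvl -0.64 ± 0.14, Cpt2 -1.10 ± 0.27 and Acadm -0.45 ± 0.12. The calls of Cpt2 and Acadm ended without the libraries with pancreatic transcripts, and that of Acadm also without Control3 or LNnT1 alone.

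Ppara, which encodes that receptor, was at 133, 90.7, 35.8, 44.3 and 56.3 CPM in LNnT1 to LNnT5, against 22.3, 31.1, 13.1, 26.9 and 12.3 CPM in Control1 to Control5 (log2 change 1.77 ± 0.49, adjusted p = 0.026). Pdk4, a brake on glucose oxidation and a target of the same receptor, was at 2052, 1259.8, 103, 219 and 324 CPM in EW+LNnT, against 90.2 to 229.9 CPM in Control (log2 change 2.56 ± 0.88, adjusted p = 0.062). LNnT1 and LNnT2 were the highest in both, and without them the list gave 9 lower and none higher, at a median of -0.62. The Ppara call ended without any 1 of Control1, Control3, Control5, LNnT1 or LNnT2, and in both fits that left out sets of libraries. Of 15 genes of fat absorption, Fabp1 (-0.97 ± 0.24) and Fabp2 (-1.0 ± 0.24), the fatty acid binding proteins of enterocytes, and Apoc3 (-0.88 ± 0.28) fell and none rose. These calls were 20% of the list beside 10.6% of all genes. The call of Apoc3 ended in 7 of the 10 fits that left out 1 library and in both fits that left out sets of libraries, and that of Fabp1 without Control3 or Control5. Of 8 genes of fructose metabolism and gluconeogenesis 2 rose, 25% of the list, among them Fbp1 (1.37 ± 0.42), an enzyme of gluconeogenesis. Without LNnT1 and LNnT2 neither gene passed and the list's median was 0.14 beside 1.00 with them.

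Among genes that mark the step from suckling to solid food, Ass1 and Fcgrt were lower. They were 2 of 12 suckling-type enterocyte genes, 16.7% beside 10.6% of all genes called, and none was called higher. The list as a whole was split, with 6 positive and 6 negative log2 changes, from -2.17 to 1.44, and a median of -0.087. Ass1 (chr2:31360219-31410684), the argininosuccinate synthase of neonatal enterocytes, was at 5.56, 3.68, 2.22, 2.11 and 1.55 CPM in LNnT1 to LNnT5, against 12.8, 10.3, 18.2, 12.1 and 14.3 CPM in Control1 to Control5, 4.49-fold lower (log2 change -2.17 ± 0.29, adjusted p = 0.00062). Fcgrt, the receptor that takes up maternal IgG, was at 115, 124, 153, 158 and 153 CPM in EW+LNnT, against 169, 251, 313, 332 and 307 CPM in Control (log2 change -0.96 ± 0.18, adjusted p = 0.0031). Neither overlapped between the groups, and LNnT1 was the highest of EW+LNnT for Ass1 and the lowest for Fcgrt. EW gave -2.16 for Ass1 and -0.85 for Fcgrt against the same Control libraries, and neither was called between EW+LNnT and EW. The Fcgrt call ended without the libraries with pancreatic transcripts.

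Sis, which encodes sucrase-isomaltase, was at 4861, 8364, 3666, 5868 and 5956 CPM in LNnT1 to LNnT5, against 2668, 3693, 2094, 2716 and 1475 CPM in Control1 to Control5 (log2 change 1.18 ± 0.30, adjusted p = 0.016). LNnT3, the lowest of EW+LNnT, lay just under Control2, the highest of Control, and the call ended without Control3, Control5 or LNnT2 alone, without LNnT1 and LNnT2 together, and without the libraries with pancreatic transcripts. Lct, which encodes lactase, gave -0.29 ± 0.35 (adjusted p = 0.64), and EW 1.06 for Sis (adjusted p = 0.091). Prodh, the first enzyme of proline breakdown, rose (log2 change 1.03 ± 0.15, adjusted p = 0.00087), whereas Arg2, the mitochondrial arginase, fell (log2 change -0.58 ± 0.14, adjusted p = 0.013). Of 13 genes of iron and zinc handling, the zinc importer Slc39a4 (1.08 ± 0.18) and the zinc exporter Slc30a1 rose and Slc39a5 (-0.82 ± 0.20) fell. They were 23.1% of the list beside 10.6% of all genes. The calls of Arg2, Slc30a1 and Slc39a5 ended without the libraries with pancreatic transcripts. Of 13 brush-border peptidases edgeR and DESeq2 called none and limma voom 1, and 2 had an unadjusted p below 0.05 in edgeR's test.

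Some sterol synthesis genes were lower in EW+LNnT than in EW. Of 23 cholesterol synthesis genes and SREBP2 targets 1 was called in EW+LNnT against Control, 4.35% beside 10.6% of all genes. It was Lss, the enzyme that closes the sterol rings, at 18.4, 17.3, 11.3, 13.6 and 11.1 CPM in EW+LNnT, against 6.59 to 9.78 CPM in Control (log2 change 0.74 ± 0.24, adjusted p = 0.048). In EW 12 of the 23 rose against the same Control libraries, where 0.953% of all genes were called, with a median log2 change of 1.00 beside 0.24 in EW+LNnT. In the test of EW+LNnT against EW 4 fell, beside 0.172% of all genes called. Among the 4 were Fdft1, the squalene synthase (-1.47 ± 0.22, adjusted p = 0.0040), Mvd (-1.17 ± 0.21, adjusted p = 0.017) and Insig1 (-1.09 ± 0.23, adjusted p = 0.045). Fdft1 was at 9.40, 13.5, 11.2, 13.5 and 12 CPM in LNnT1 to LNnT5, against 26.7, 31.5, 31.7, 35.9 and 39.7 CPM in Weaned1 to Weaned5 and 16.0, 13.6, 15.1, 11.8 and 16.9 CPM in Control1 to Control5. EW libraries were the highest, and EW+LNnT libraries lay among or below the Control libraries. The Lss call ended in 8 of the 10 fits that left out 1 library of EW+LNnT or Control, and in both fits that left out sets of libraries. The calls against EW ended in 21 of the 25 fits without 1 library for Insig1 and in 5 of the 25 for Mvd (without LNnT1, LNnT3, Weaned3, Weaned4 or Weaned5), and in none of them for Fdft1. Without the libraries with pancreatic transcripts 1 of the 23 was called against EW, and Fdft1 had an adjusted p of 0.053. With the share of Y-linked counts as a covariate the adjusted p against EW was 0.013 for Fdft1, 0.069 for Mvd and 0.14 for Insig1.

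**Figure D3:**
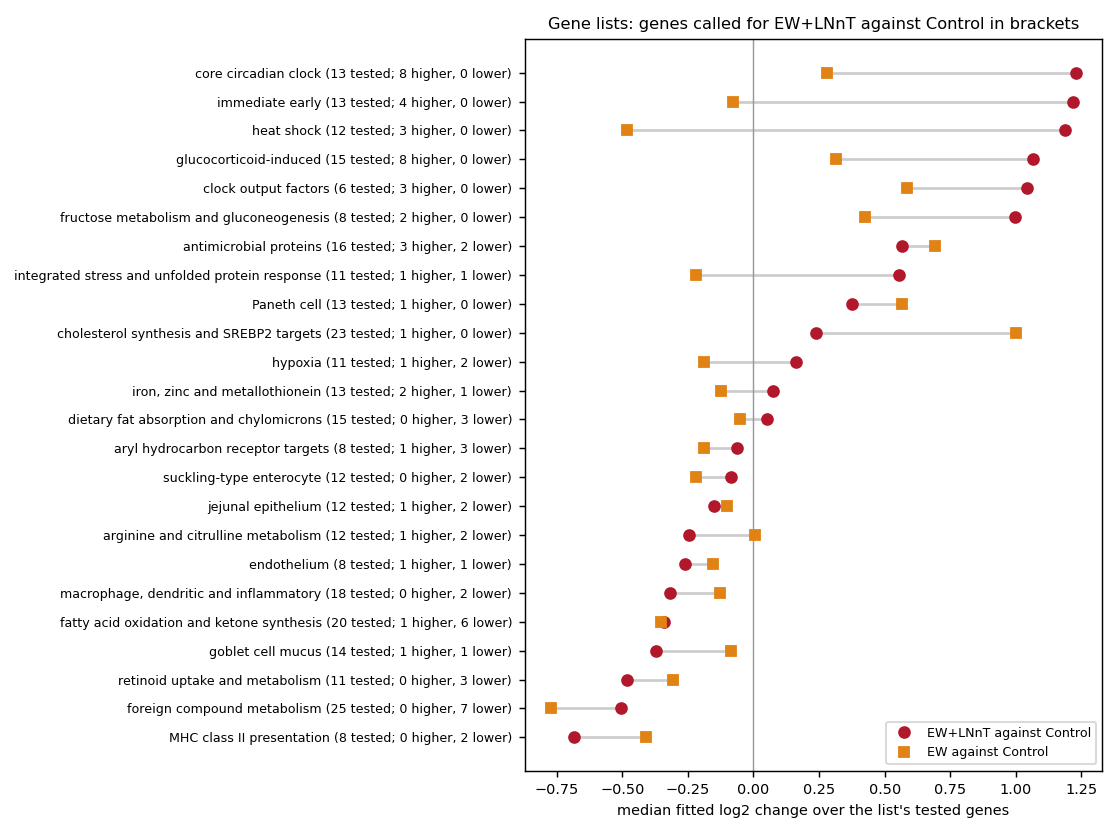
Median log2 change of each gene list with at least 2 calls in either comparison, circles for EW+LNnT against Control and squares for EW against Control, which share the Control libraries. The core clock list lies at 1.23 in EW+LNnT and 0.28 in EW, the cholesterol list at 0.24 in EW+LNnT and 1.00 in EW, and the foreign compound list at -0.50 in EW+LNnT and -0.77 in EW.

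Stress-induced genes were high in 1 EW+LNnT library. Hspa1a, an inducible HSP70 chaperone, was at 3.06, 2.08, 4710.3, 3.57 and 8.82 CPM in LNnT1 to LNnT5, against 3.79, 3.98, 4.84, 4.44 and 4.94 CPM in Control1 to Control5 (log2 change 7.75 ± 1.92, adjusted p = 0.017). Dnajb1, its co-chaperone, was at 46.7, 45.2, 695, 44.5 and 50.4 CPM in EW+LNnT, against 40.5, 50.1, 56.4, 54.3 and 52.9 CPM in Control (log2 change 1.79 ± 0.56, adjusted p = 0.042). LNnT3 stood far above all others and LNnT1 and LNnT2 were within or below the Control range in both. Of 12 heat shock genes Hspa1a, Hspa1b and Dnajb1 were called, and of 13 immediate early genes Jun, Junb, Egr1 and Atf3. These were 25% and 30.8% of the lists beside 10.6% of all genes. Without LNnT3 edgeR called none of either list, with 4 heat shock genes and 0 immediate early genes at an unadjusted p under 0.05 and medians of -0.28 and -0.12. The other tools called 1 heat shock gene each with LNnT3 kept, and DESeq2 called 3 and limma voom 0 of the immediate early genes. Without the libraries with pancreatic transcripts the calls of Dnajb1 and of the 4 immediate early genes ended. Reads of Hspa1a and Hspa1b may be shared.

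Some genes rose beyond that library. Gclc, the catalytic subunit of the first enzyme of glutathione synthesis, was at 151, 105, 1094, 86.5 and 109 CPM in LNnT1 to LNnT5, against 26.9 to 47.9 CPM in Control (log2 change 3.16 ± 0.54, adjusted p = 0.0022), and without LNnT3 it gave 1.70 (adjusted p = 0.0014). Dusp1 was at 44.7, 37.9, 342, 10.9 and 17.3 CPM in EW+LNnT, against 7.96 to 14.4 CPM in Control (log2 change 2.95 ± 0.63, adjusted p = 0.0078), and without LNnT3 it gave 1.24 (adjusted p = 0.024). LNnT3 was the highest in both, and the other EW+LNnT libraries were above all Control libraries for Gclc but not for Dusp1. Herpud1, a protein of endoplasmic reticulum quality control, was at 1474, 1375, 274, 294 and 319 CPM in EW+LNnT, against 178 to 227 CPM in Control (log2 change 1.94 ± 0.50, adjusted p = 0.019), and its highest values were in LNnT1 and LNnT2, without either of which the call ended. Sdf2l1, a cofactor of the chaperone BiP, fell (log2 change -0.59 ± 0.18, adjusted p = 0.040), and its call ended in 6 of the 10 fits that left out 1 library and, like that of Herpud1, in both fits that left out sets of libraries.

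**Figure D4:**
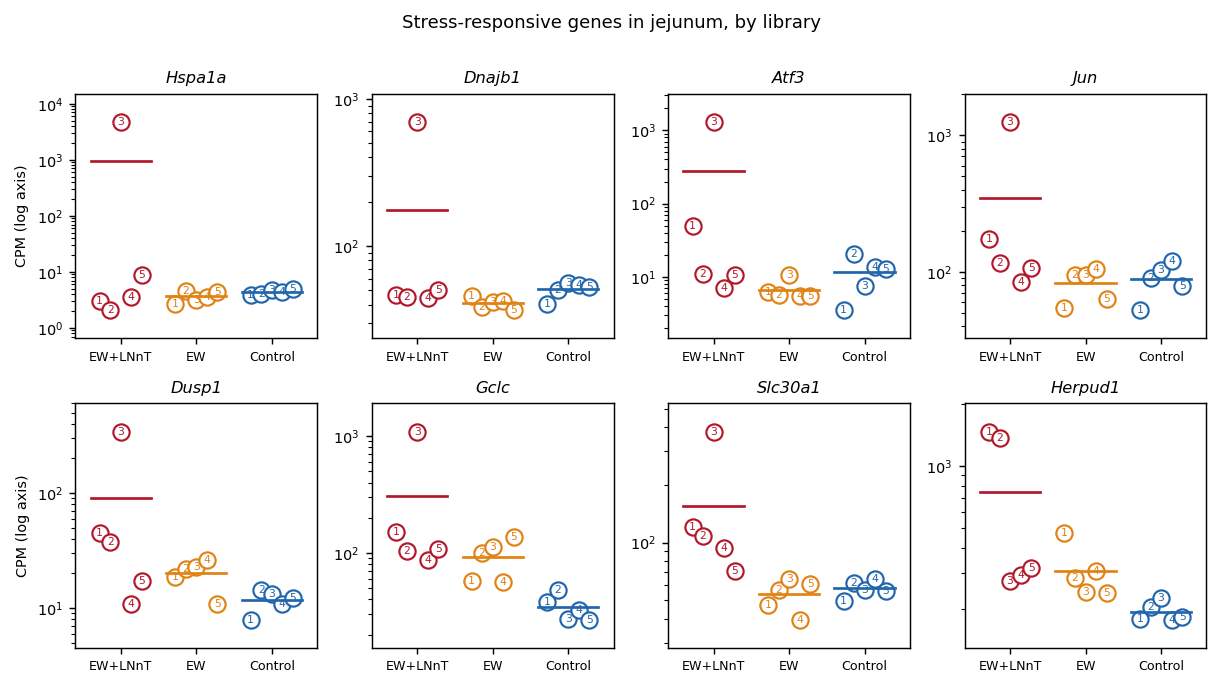
Levels (CPM, log axis) of 8 stress-induced genes in the 5 EW+LNnT, 5 EW and 5 Control libraries, each circle a library numbered by replicate and each line the group mean. LNnT3 stands alone in Hspa1a (4710.3 CPM), Dnajb1 (695 CPM), Atf3 (1295 CPM) and Jun (1248 CPM), whereas Herpud1 is highest in LNnT1 and LNnT2.

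Genes of antigen presentation, complement and lymphocytes gave few calls. Of 8 genes of MHC class II presentation H2-Ab1 (-0.86 ± 0.24) and H2-Eb1 (-0.88 ± 0.27) fell, 25% of the list beside 10.6% of all genes, with summed levels of 439 to 778 CPM in EW+LNnT and 821 to 1031 CPM in Control, and both calls ended without LNnT1 or LNnT2 alone and in both fits that left out sets of libraries. Of 18 macrophage, dendritic and inflammatory genes, the complement genes C1qa (-0.92 ± 0.18) and C1qb (-0.83 ± 0.15) fell, 11.1% of the list beside 10.6% of all genes. Of 12 B cell genes Ms4a1, which encodes CD20, fell (-3.55 ± 1.12), and of 15 T cell genes Ccr9, the gut-homing receptor, rose (1.32 ± 0.31). These single calls were 8.33% and 6.67% of their lists, below the 10.6% of all genes called. Control1 was the highest library for Ms4a1, and without it the estimate was -1.91 (adjusted p = 0.26), while 7 of the 10 fits that left out 1 library and both fits that left out sets of libraries ended the call. The calls of C1qa, C1qb and Ccr9 ended without the libraries with pancreatic transcripts. Among 20 interferon-induced genes none was called by edgeR, DESeq2 or limma voom, and 0 had an unadjusted p under 0.05 in edgeR's test. This does not show them to be level: their mean log2 CPM was 1.76, 2.08, 5.03, 4.45 and 4.20 in LNnT1 to LNnT5, against 3.80 to 4.52 in Control. The T cell list split likewise, at -1.01, -1.67, 2.15, 2.00 and 2.39 in LNnT1 to LNnT5, against 0.94 to 1.86 in Control. Tnf gave 0.15 ± 0.97 (adjusted p = 0.95) and Il1b -0.32 ± 0.82 (adjusted p = 0.84), and Il6 was too low to be tested.

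Lgr5 (chr10:115286216-115423685), the receptor that marks crypt stem cells, was at 7.23, 5.74, 6.05, 8.63 and 9.25 CPM in LNnT1 to LNnT5, against 16.0, 13.8, 13.5, 16.5 and 15.5 CPM in Control1 to Control5, 2.04-fold lower (log2 change -1.03 ± 0.17, adjusted p = 0.0018). The highest EW+LNnT library was well under the lowest Control library. Lgr5 alone of 14 crypt stem cell genes was called, 7.14% of the list beside 10.6% of all genes. Of 17 cell cycle genes edgeR called none while DESeq2 and limma voom called 1 each, and 4 had an unadjusted p below 0.05. Of 23 junction genes Tjp1, which encodes the scaffold ZO-1, rose, at 151, 154, 150.3, 103 and 126 CPM in EW+LNnT, against 76.3, 102, 67.5, 105 and 68.3 CPM in Control (log2 change 0.71 ± 0.20, adjusted p = 0.029). This single call was 4.35% of the junction list. LNnT4 lay just under Control4 and beside Control2 for Tjp1, and the call ended without any 1 of Control1, Control3, Control5, LNnT1, LNnT2 or LNnT3, and in both fits that left out sets of libraries. Ocln, which encodes occludin, gave 0.38 ± 0.19 (adjusted p = 0.21) and Cldn3 -0.27 ± 0.16 (adjusted p = 0.27). Sct, the hormone secretin, fell (log2 change -0.88 ± 0.20, adjusted p = 0.0090), alone among 15 enteroendocrine genes (6.67%), and the call ended without the libraries with pancreatic transcripts. Of the smooth muscle, neural, fibroblast, erythroid and pancreatic genes none was called by edgeR, DESeq2 or limma voom, and 0 had an unadjusted p under 0.05 in edgeR's test.

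Genes outside these lists were named by the size of their change among called genes whose groups did not overlap and whose higher group averaged 5 CPM or more. Prrg4, a transmembrane Gla protein, was at 11.1, 9.97, 5.57, 0.838 and 1.03 CPM in LNnT1 to LNnT5, against 0.148, 0.443, 0.120, 0.553 and 0.0793 CPM in Control1 to Control5 (log2 change 4.39 ± 0.77, adjusted p = 0.0023). Smcp, known as a mitochondrial capsule protein of sperm, was at 0.121, 0.274, 0.803, 0.224 and 0.295 CPM in EW+LNnT, against 4.42, 5.18, 6.69, 8.68 and 8.47 CPM in Control (log2 change -4.27 ± 0.68, adjusted p = 0.0016). LNnT4 and LNnT5 were the lowest for Prrg4 among EW+LNnT, about as high as the EW libraries Weaned4 and Weaned5, and Smcp was highest in LNnT3. Psca (3.70 ± 1.02), a surface antigen, Etnk2 (3.61 ± 0.91), an ethanolamine kinase, Plag1 (2.51 ± 0.65), a zinc-finger factor, and Rnf125 (2.44 ± 0.62), a ubiquitin ligase, rose, and the nuclear receptor gene Nr2e3 (-2.37 ± 0.49) and the carboxylesterase Ces2b (-2.70 ± 0.56) fell. The calls of Psca, Etnk2, Plag1 and Rnf125 ended without Control3, Control5 or LNnT2 alone and in both fits that left out sets of libraries, and that of Ces2b without the libraries with pancreatic transcripts. Of the 10 fits that left out 1 library, 6 ended the call of Psca and 4 that of Plag1.

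Of the named genes, 4 differed from EW as well as from Control. Nfil3 was at 85.7, 27.8, 55.9, 21.7 and 21.0 CPM in LNnT1 to LNnT5, against 5.63, 7.50, 5.97, 8.71 and 5.30 CPM in Weaned1 to Weaned5 (EW+LNnT minus EW 2.68 ± 0.41, adjusted p = 0.0056). Per2 was at 91.1 to 158 CPM in EW+LNnT, against 48.6, 52.4, 52.9, 48.7 and 80.1 CPM in EW (0.97 ± 0.19, adjusted p = 0.027). Every EW+LNnT library exceeded every EW library in both genes, and EW lay at Control levels with Weaned5 somewhat higher for Per2. Lgr5 was lower in EW+LNnT than in EW (-0.82 ± 0.17, adjusted p = 0.041), at 5.74 to 9.25 CPM in EW+LNnT, against 10.1 to 16.9 CPM in EW. Slc30a1 was at 120.4, 109, 380.4, 93.4 and 71.0 CPM in EW+LNnT, against 47.2, 56.6, 64.6, 39.5 and 60.6 CPM in EW (1.53 ± 0.32, adjusted p = 0.041), with LNnT3 the highest. Without LNnT3 the difference was 0.87 (adjusted p = 0.097) for Slc30a1, 0.81 (adjusted p = 0.089) for Per2 and -0.76 (adjusted p = 0.11) for Lgr5. Of the 25 fits that left out 1 library, 18 ended the call of Lgr5, 18 that of Slc30a1 and 5 that of Per2. All EW libraries but Weaned3 carried Y-linked transcripts. With the share of Y-linked counts as a covariate the adjusted p was 0.036 for Nfil3, 0.083 for Per2, 0.11 for Lgr5 and 0.14 for Slc30a1. Nfil3 kept its call against EW whichever of the 25 libraries was left out, and gave 2.26 (adjusted p = 0.053) without the libraries with pancreatic transcripts. The remaining genes among the 25 included the deacetylase Sirt1 (log2 change of EW+LNnT against EW 1.01 ± 0.18, adjusted p = 0.017), the kinase regulator Trib1 (1.77 ± 0.32, adjusted p = 0.017) and the cyclins Ccnl1 (0.93 ± 0.18, adjusted p = 0.033) and Ccnl2 (0.56 ± 0.10, adjusted p = 0.017) as higher, and these were chosen after their values were seen. Their calls ended without Weaned2, Weaned3 or Weaned4 for all 4 genes and without LNnT1 or LNnT3 for Trib1, Ccnl1 and Ccnl2, with further libraries for Trib1 and Ccnl1, and none of the 4 was called without the libraries with pancreatic transcripts (adjusted p = 0.084 to 0.095).

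Long transcripts were higher and short ones lower in EW+LNnT. The 14718 genes at 1 CPM or more with a known transcript length were put in 5 bins of nearly equal size by their longest transcript. In the bin of the longest transcripts, 611 genes rose (20.8%) and 32 fell (1.09%), whereas in the bin of the shortest 80 rose (2.72%) and 344 fell (11.7%). The median log2 change was 0.24 in the longest and -0.24 in the shortest bin in EW+LNnT against Control, and 0.17 and -0.18 in EW against the same Control libraries. The gap between the longest and the shortest bin was 0.27 to 0.70 in EW+LNnT libraries, -0.37 to 0.57 in EW libraries and -0.26 to 0.25 in Control libraries. All EW+LNnT libraries lay above all Control libraries by this measure, with LNnT1 the nearest to Control. Weaned2 to Weaned5 also lay above all Control libraries, at 0.57, 0.54, 0.50 and 0.53, whereas Weaned1 was at -0.37. The part of transcript length in the gene results was not tested beyond an offset. With length as an offset per library there were 1759 calls, and all 8 called core clock genes, all 8 called glucocorticoid-induced genes and 4 of the 7 called foreign compound genes kept their call. Of the 97 called list and named genes 17 lost the call with the offset, which were Ugt2b5, Cyp2b10, Cyp2c55, Acadm, Acadvl, Apoc3, Lss, Reg3a, Reg4, Agr2, Arg2, Slc6a20a, Tjp1, Sdf2l1, H2-Ab1, H2-Eb1 and Lgals2.

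**Figure D5:**
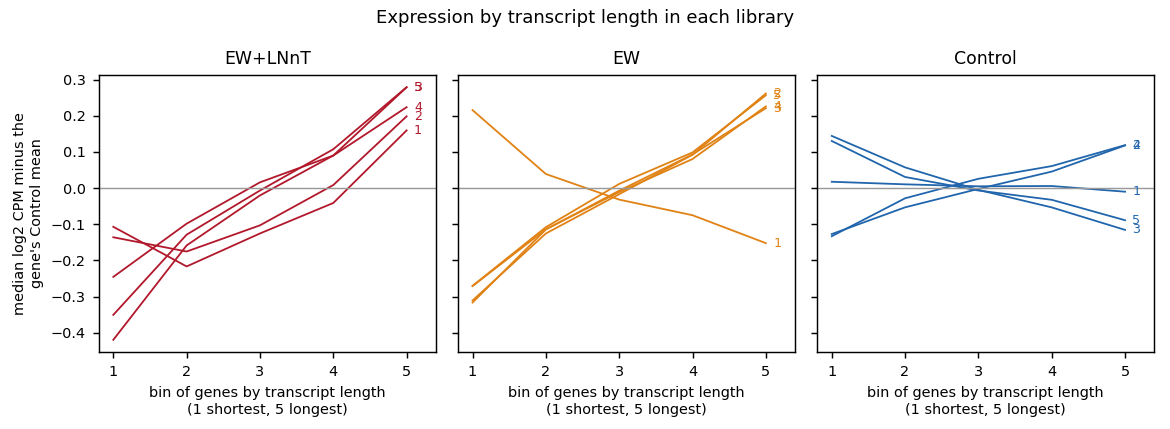
Median difference from the Control mean (log2 CPM) of genes in each of 5 bins by longest transcript length, 1 line for each EW+LNnT, EW and Control library. The EW+LNnT lines end at 0.16 to 0.28 in the bin of the longest transcripts, while the Control lines end at -0.12 to 0.12. The lines of Weaned2 to Weaned5 end at 0.22 to 0.26 and that of Weaned1 at -0.15.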

How the data were processed

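Poly(A)-selected, strand-specific (dUTP) RNA libraries of mouse jejunum with an RNA integrity number over 7 were sequenced, per the labels' protocols. The authors deposited 1 table of whole-number read counts per gene and a second with FPKM values and a copy of the counts, each for all 25 libraries. The submitters' processing notes name cutadapt 1.9, HISAT2 2.2.1, StringTie 2.1.6, DESeq2, edgeR and the build GRCm39, with no role or order, and the counting program and the treatment of reads shared between genes are not given in the sources used here. Of 57132 genes in the table, 35723 had a count and 22131 passed edgeR's filterByExpr.

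The deposited counts were normalized with TMM and tested with edgeR 4.0.16 (quasi-likelihood F test, R 4.3.3, 1 factor for group, all 25 libraries sharing the estimate of spread), with Benjamini-Hochberg adjustment over all genes and a threshold of 0.05. CPM are TMM-scaled. Each log2 change is EW+LNnT minus Control unless said otherwise, and the ± after it is a standard error, the size of the change divided by the square root of F. Alternatives used DESeq2 1.42.0, limma 3.58.1 (voom with sample weights, and log2 of FPKM + 0.1), other filters, scalings and subsets, and, chosen after seeing the data, an offset for transcript length. In counts simulated from these libraries for this comparison, on 22131 genes with 200 changed, edgeR called 110 genes, 7 of them unchanged (6.36%), and found 13.4% of 1.5-fold, 49.3% of 2-fold and 92.4% of 4-fold changes. The simulated counts were drawn independently for each gene, with no library that stood apart, no pancreatic transcripts in single libraries and no trend by transcript length. These shares therefore need not hold for the calls in the real data.

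Genes were named by rule: up to 12 each way with the largest change among called genes whose groups did not overlap and whose higher group averaged 5 CPM or more, up to 4 called members of each list by p, a panel of weaning and barrier genes, and members of lists with 3 or more calls. Fdft1, Mvd and Insig1 were named as members called against EW. Values of some members counted in the lists are not reported here. The members and the 44 gene lists (562 genes, 549 tested) were chosen with earlier results of these data known. No pair of libraries within a group agreed within sampling noise (Spearman correlation 0.907 to 0.950), so all 5 of each group were counted. Libraries of the same number in EW+LNnT and Control did not deviate together and were not paired. Promoter sequences and motif searches used RefSeq's table for GRCm38.p6, and no coordinates were converted.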

Additional observations from a re-analysis of the deposited data

Results flagged for a closer look

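In 26 of 190 groups of 5 libraries looked at, the highest or lowest library lay further from the nearest other than Dixon's 95% limit for 5 values allows, which chance gives in about 1 of 20 groups. LNnT3 was that library most often. It was the highest of EW+LNnT for the stress genes Hspa1a (4710.3 CPM, other EW+LNnT libraries 2.08 to 8.82), Hspa1b (5032 CPM, others 2.56 to 13.8), Dnajb1 (695 CPM, others 44.5 to 50.4), Atf3 (1295 CPM, others 6.97 to 49.7), Jun (1248 CPM, others 84.5 to 175), Junb (538 CPM, others 83.7 to 140.2) and Egr1 (249 CPM, others 4.18 to 15.4). It was also the highest for Dusp1 (342 CPM, others 10.9 to 44.7), Gclc (1094 CPM, others 86.5 to 151), Slc30a1 (380.4 CPM, others 71.0 to 120.4), Smcp (0.803 CPM, others 0.121 to 0.295), Tnf (2.22 CPM, others 0.0604 to 0.685) and Ugt2b5 (51.9 CPM, others 7.03 to 15.5). Without LNnT3 the log2 change of EW+LNnT against Control was 1.70 (adjusted p = 0.0014) for Gclc, 0.77 (adjusted p = 0.019) for Slc30a1 and 0.74 (adjusted p = 0.36) for Atf3.

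LNnT1 was the highest EW+LNnT library for Sprr2a1 (318 CPM, others 61.3 to 124), Sprr2a2 (319 CPM, others 62.3 to 124), Cry1 (68.8 CPM, others 34.8 to 42.0) and Ocln (210.3 CPM, others 128 to 145). LNnT2 alone held Retnlb (1.15 CPM), and LNnT5 held the Cyp1a2 value that stood apart (0.0473 CPM, with 0 in the others).

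Among Control libraries, Control2 stood apart for Psca (4.26 CPM, others 0.278 to 0.868), Rnf125 (14.5 CPM, others 1.56 to 5.17) and Slc39a5 (177 CPM, others 205 to 215). Control5 stood apart for Cyp1a1 (206 CPM, others 8.55 to 59.5), Control4 for Pla2g2a (2.1 CPM, others 4.94 to 5.88) and Control1 for Ms4a1 (3.78 CPM, others 0.250 to 0.467). Without Control2 the log2 change of Psca was 4.99 (adjusted p = 0.0100).

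The effects of EW+LNnT and of EW, both against Control, differed in the direct test for 4 named genes. EW+LNnT minus EW was 2.68 for Nfil3, 1.53 for Slc30a1, 0.97 for Per2 and -0.82 for Lgr5 on the log2 scale, and the values of every library are given with the results above.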

How the results depend on the processing

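The count of genes called between EW+LNnT and Control, 2348, was within 1.5 times under DESeq2's size factors, a stricter filter, the FPKM values, a fit of these 10 libraries alone, the share of Y-linked counts as a covariate and the length offset. It was 1508 (871 higher) with no filter, 3542 (2317 higher) with DESeq2, 3600 (1756 lower) with limma voom, 3566 (1422 lower) among libraries without Y-linked transcripts, 1474 (806 higher) without LNnT1, LNnT2 and the 2'-fucosyllactose library that stood with them, and 261 (130 higher, 131 lower) without the libraries with pancreatic transcripts. The genes called higher were 907 with FPKM values and 972 in the fit of these 10 libraries alone, those called lower were 541 with the length offset, and 878 (600 higher, 278 lower) were at least 2-fold. Leaving out 1 library gave 700 to 3310 calls (421 to 2022 higher, 279 to 1288 lower). The replicate block, a factor for replicate number, gave 2258 calls. Same-numbered libraries of EW+LNnT and Control had correlations of -0.146 to 0.0965 and 0 of 5 correlated best with its own number, so they share only a number.

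The number of named genes called between EW+LNnT and EW, 4, was 1 with no filter, 7 with the stricter filter, 20 with DESeq2, 10 with limma voom, 1 with FPKM values, 2 with the replicate block, 1 with the Y covariate, 11 without the libraries that stood apart, 0 without those with pancreatic transcripts (by edgeR), 8 with the length offset and 1 to 15 when 1 library was left out. Among libraries without Y-linked transcripts only Weaned3 was left of EW, so no count against EW is given for them. Of 89 named genes called against Control, 32 lost the call without the libraries that stood apart and 58 without those with pancreatic transcripts. Directions turned for Hspa1a (-0.0035 without LNnT3, up to 8.08 without another) and Dnajb1 (-0.12 without LNnT3, up to 2.05 without another), and Retnlb gave 0.00, with no count left in either group, in the fits without LNnT2. For these 3 genes the libraries left out held the high values, and the cause of the other differences was not tested. In the simulated data, which held no library that stood apart, 13.4% of 1.5-fold changes were found.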

Other observations

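Some lists gave single calls that belong to no comparison above. Of 11 hypoxia-induced genes, Adm, which encodes the vasodilator peptide adrenomedullin, rose (1.53 ± 0.45), while Egln3 (-1.35 ± 0.35), an oxygen-sensing prolyl hydroxylase, and Ankrd37 (-2.02 ± 0.44) fell. These calls were 27.3% of the list beside 10.6% of all genes. Adm was at 18.5, 8.64, 8.29, 2.53 and 4.88 CPM in LNnT1 to LNnT5, against 2.56, 2.62, 3.62, 3.83 and 2.18 CPM in Control1 to Control5. Ankrd37 was at 5.52, 1.51, 1.74, 3.62 and 4.19 CPM in EW+LNnT, against 7.23, 11, 15.9, 23.2 and 9.78 CPM in Control. The EW+LNnT libraries lay below all Control libraries for Ankrd37. Of 12 lectins and glycan enzymes that could meet milk sugars, Lgals2, which encodes galectin-2, fell (-0.79 ± 0.25), and of 14 transporters of sugars, amino acids and peptides Slc6a20a, an imino acid transporter, fell (-0.63 ± 0.20). These single calls were 8.33% and 7.14% of the lists, below the 10.6% of all genes. Of 8 endothelial genes, Lyve1, a lymphatic marker, rose (0.83 ± 0.27) and Tek, an angiopoietin receptor, fell (-0.57 ± 0.18), 25% of the list. The calls of Adm, Lgals2, Slc6a20a, Lyve1 and Tek ended without Control1, Control3, Control5, LNnT1 or LNnT2 alone, and without LNnT1 and LNnT2 together. Of the 10 fits that left out 1 library, 9 ended the call of Slc6a20a, 8 that of Tek, 7 that of Lyve1, and 6 each those of Adm and Lgals2. That of Egln3 ended without LNnT2 alone, and all of these calls, with that of Ankrd37, ended without the libraries with pancreatic transcripts. In edgeR's test none of 12 fatty acid synthesis genes, 8 bile acid genes, 9 tuft cell genes and 7 adipocyte genes was called, with 4, 2, 3 and 1 of them at an unadjusted p under 0.05. DESeq2 called 1 tuft cell gene and 1 adipocyte gene, and limma voom called 1 fatty acid synthesis gene and 1 bile acid gene.

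Control2 held transcripts of both sexes, with Y-linked genes at 78.1 CPM and Xist at 214 CPM, whereas the other 4 Control libraries held Xist at 253 to 401 CPM and Y-linked genes at 0. Among EW+LNnT libraries, Y-linked genes summed to 194 CPM in LNnT4 and 173 CPM in LNnT5, with Xist at 0.839 and 0.454 CPM, and LNnT1 to LNnT3 held Xist at 244 to 502 CPM.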
